A study of Homo sapiens with 6 samples.

Results

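The collagen chain genes were taken as every gene whose symbol is COL, a number, A and a number, with antisense transcripts left out, by the gene annotation of the Affymetrix HG-U133 Plus 2.0 array. They were 43 of the 19775 genes named on the array and had 112 probe sets. A probe set is a group of short probes that reads 1 stretch of a transcript. Of the 43 genes, 21 were bright enough to be tested, and the 22 others were left out for a low mean signal. By the kind of assembly their chains are known to form, 11 genes were classed as fibrillar, 9 as network-forming and 23 as other types. COL17A1 is not analysed here.

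The arrays measured RNA of Hep3B, a human hepatocellular carcinoma cell line, stably transfected with a plasmid. Clone D20 carried the plasmid siSDHB, made to silence SDHB, a subunit of succinate dehydrogenase, and clone pU6-2 carried the plasmid pU6 as the control. Both clones were grown in the same medium under G418, the drug that keeps plasmid-bearing cells, and were collected near confluence. Each clone gave 3 arrays, A, B and C, which the labels do not describe as separate cultures, so the p-values measure the spread between arrays, which may be technical. Each condition is 1 clone, so silencing and clone cannot be told apart, and the level of SDHB is not analysed here.

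Collagens are secreted proteins built of 3 chains wound into a triple helix. Fibrillar collagens are trimmed outside the cell and pack into the fibres that give tissue its tensile strength. Type IV chains join at their ends into the sheet of the basement membrane. Other types sit on fibrils, anchor basement membranes or span the cell membrane. In liver most fibrillar collagen is known to come from stellate cells and fibroblasts, and hepatocytes are a minor source.

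The type IV genes lie in head-to-head pairs, in which 1 gene is read from the plus strand and its partner from the minus strand, starting close together. Both pairs that could be tested were higher in D20 in both of their genes, and the sequence between their starts is therefore shown. Of these genes COL4A2, COL4A3 and COL4A4 were bright enough to be tested only through their D20 signals. In the RefSeq table of GRCh38.p14 the starts of COL4A1 and COL4A2 lay 127 bases apart on chromosome 13, and those of COL4A4 and COL4A3 lay 419 bases apart on chromosome 2. Each line gives, 5′ to 3′ on the named gene's strand, 250 bases before the start and 50 after it. Capitals mark GGGCGG (the GC box) or CCAAT on either strand. The COL4A2 window, chr13:110307034-110307333 on the plus strand, also holds the start of COL4A1 at its position 124. The COL4A3 window is chr2:227164374-227164673 on the plus strand, and the COL4A4 window is chr2:227164156-227164455 on the minus strand. The last 2 windows overlap by 82 bases.
COL4A2: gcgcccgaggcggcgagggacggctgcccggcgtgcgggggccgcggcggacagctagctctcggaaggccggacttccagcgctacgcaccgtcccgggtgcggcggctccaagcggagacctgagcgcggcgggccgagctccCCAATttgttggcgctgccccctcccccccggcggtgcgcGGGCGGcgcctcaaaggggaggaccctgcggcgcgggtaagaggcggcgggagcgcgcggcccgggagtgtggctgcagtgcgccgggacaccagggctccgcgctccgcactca
COL4A3: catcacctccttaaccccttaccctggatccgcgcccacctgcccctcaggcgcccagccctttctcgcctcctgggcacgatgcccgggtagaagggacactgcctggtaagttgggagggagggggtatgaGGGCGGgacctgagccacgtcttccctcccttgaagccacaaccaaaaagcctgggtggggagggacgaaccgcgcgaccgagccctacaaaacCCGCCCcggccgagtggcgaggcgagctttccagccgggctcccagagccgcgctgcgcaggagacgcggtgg
COL4A4: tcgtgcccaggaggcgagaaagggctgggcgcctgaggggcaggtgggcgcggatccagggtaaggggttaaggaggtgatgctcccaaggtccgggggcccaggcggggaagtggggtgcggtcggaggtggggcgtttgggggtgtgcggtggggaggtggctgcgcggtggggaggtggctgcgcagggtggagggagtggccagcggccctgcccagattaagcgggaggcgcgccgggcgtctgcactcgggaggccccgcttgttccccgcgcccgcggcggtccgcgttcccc

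The GC content was 77.7% in the COL4A2 window, 67.7% in the COL4A3 window and 74% in the COL4A4 window, against a median of 58.7% over 35116 RefSeq promoter windows of the same length. The COL4A2 window held 1 GC box and 1 CCAAT, the COL4A3 window held 2 GC boxes and no CCAAT, and the COL4A4 window held neither set of letters. Both sets of letters are common: 45.0% of all windows held GGGCGG and 34.6% held CCAAT on either strand. Windows were listed for 31 of the 43 genes, 43 windows in all, of which 24 held GGGCGG, 13 held CCAAT and 7 held TATAAA, letters found in 11.5% of all windows. A further pair of letters searched was the core of the sites bound by hypoxia-inducible factors. ACGTG was in 7 of the 43 collagen windows and 21.4% of all windows, and GCGTG in 16 of the 43 and 36.5% of all.

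Signals are MAS5 values on a linear scale. The trimmed mean was 499.9 on every array, the median signal was 86.2 to 92.4 on D20 arrays and 77.7 to 84.1 on pU6-2 arrays. Precision is limited by the few arrays. The ratio of 3′ to 5′ probe sets, a sign of RNA integrity, was 1.11 to 1.25 in D20 and 1.08 to 1.15 in pU6-2 for GAPDH. For ACTB it was 1.40 to 1.68 in D20 and 1.42 to 1.90 in pU6-2. Arrays of the same clone correlated at r = 0.953 to 0.967 across probe sets, and arrays of different clones at 0.880 to 0.890.

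The comparison of D20 with pU6-2 asks how collagen transcripts differed in the cells made to lose SDHB. Of the 21 tested genes, 9 were higher in D20, 5 were lower and 7 did not pass the test. Those higher were COL1A1, the type IV genes COL4A1, COL4A2, COL4A3 and COL4A4, and COL7A1, COL12A1, COL16A1 and COL18A1. Those lower were COL2A1, COL5A2, COL27A1, COL9A3 and COL26A1. The test was limma's moderated test on log2(signal + 16), with p-values adjusted by Benjamini-Hochberg over 32768 probe sets and a gene called below 0.05. Every adjusted p below is from that fit, and every fold change is on that scale, which understates changes of dim genes.

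Differences between the clones were common across the whole array: 44.5% of the 13781 genes tested were called, 23.7% higher and 20.8% lower. The members called were 14 of 21, or 66.7%. This share is not set against the background, because a gene dim in one clone passed the filter only where it was bright in the other. COL1A1, COL4A2, COL4A3 and COL4A4 had a pU6-2 mean below the signal of 43.2 at which the filter lay. When all 43 members were tested with no filter, 9 (20.9%) were higher and 4 (9.30%) lower, against 15.3% and 13.5% of all 19775 genes. Again with no filter, 8 of the 43 members (18.6%) were called and at least 2-fold higher, as were 7.52% of all genes, and 2 (4.65%) were at least 2-fold lower, as were 4.58%. The median log2 fold change of the 43 members was then 0.16, and that of all genes was 0.04.

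The direction of calls over all genes depended on how the arrays were scaled. Of all genes called, 53.2% were higher in D20 with MAS5's own scaling, 40.6% after median centring and 72.7% after scaling on the spike-in controls, and the median log2 fold change of all genes was 0.04, -0.10 and 0.25 under these scalings. The direction of each of the 14 called members held under all of these scalings and quantile normalization, but the call of COL26A1 was lost with the spike-in scaling.

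**Figure D1:**
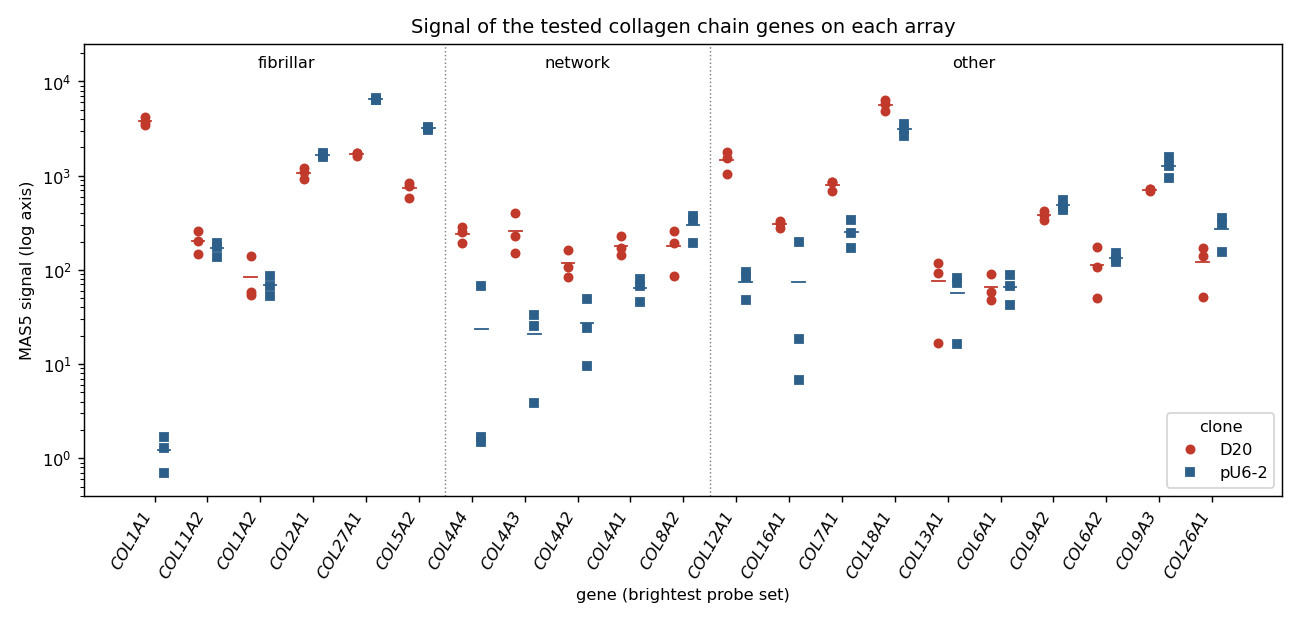
MAS5 signal (log axis) of the 21 tested collagen chain genes on each array, by class. Circles are D20 arrays, squares are pU6-2 arrays and bars are the means of 3 arrays. The D20 arrays of COL1A1 lie at 3440 to 4231 and its pU6-2 arrays at 0.7 to 1.7.

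By class, the fibrillar genes went both ways: 1 of 6 tested was higher and 3 were lower, with a median log2 fold change of -0.23. Of the network-forming genes 4 of 5 tested were higher and 0 were lower, with a median of 1.68. Among the other types, 4 of 10 tested were higher and 2 were lower, with a median of 0.12. These counts are of genes that passed the filter, COL1A1, COL4A2, COL4A3 and COL4A4 through their D20 signals. With no filter, 1 of all 11 fibrillar genes was higher and 3 were lower. Of all 9 network-forming genes 4 were then higher and 0 lower, and of the 23 others 4 were higher and 1 lower. Over all genes 15.3% were higher and 13.5% lower with no filter. The difference between classes was not tested, since genes are not replicates of a class. Each class had some members of too low a signal to be tested, 5 fibrillar, 4 network-forming and 13 of the other types.

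**Figure D2:**
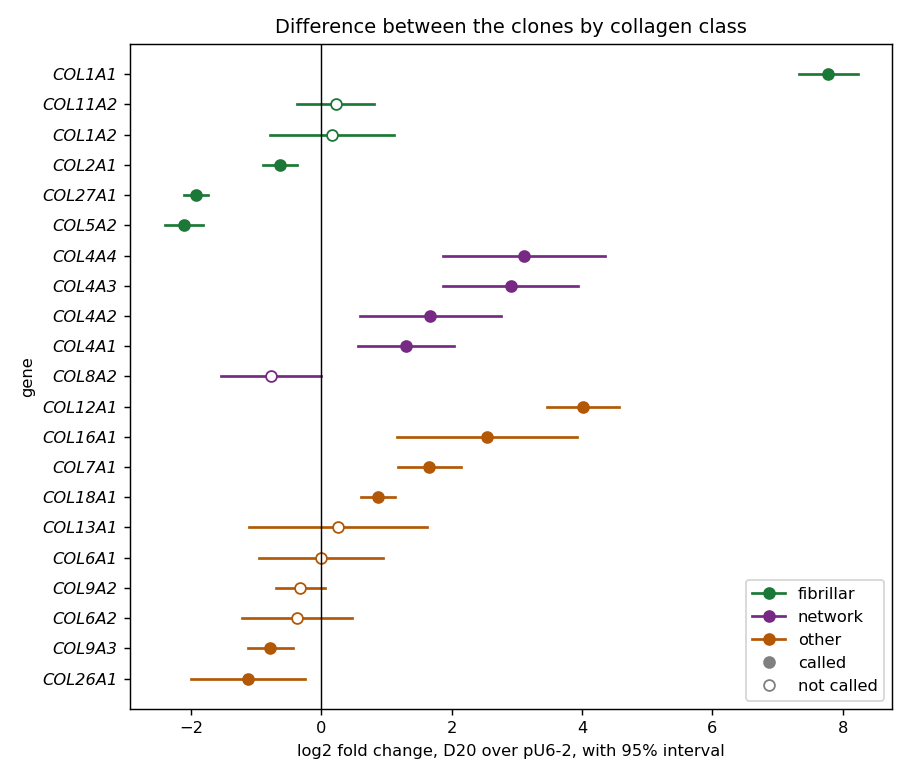
Log2 fold change of D20 over pU6-2 for the 21 tested genes, grouped by class, with the 95% interval from limma. Filled points passed the test and open points did not. The 4 type IV genes lie between 1.30 and 3.11, and the fibrillar genes between -2.11 and 7.78.

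Type I collagen is the main fibrillar collagen of bone, skin and scar tissue and is made of chains from COL1A1 and COL1A2. COL1A1, on chromosome 17, had signals of 4230.5, 3670.1 and 3439.5 on the D20 arrays, against 1.3, 1.7 and 0.7 on the pU6-2 arrays. No array of one clone came near those of the other. The difference was 7.78 ± 0.21 (SE, n = 3 each) with an adjusted p of 5.64e-11. Its size depended on the pseudocount, being 10.75 with 1 and 5.88 with 64 for the same probe set.

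The 5 probe sets of COL1A1 did not give the same picture. Of the 3 other tested ones, the next brightest read 1139.6, 1288.5 and 1002.5 in D20 and 2.9, 27.6 and 11.5 in pU6-2, a log2 fold change of 5.35 that also passed the test. The remaining 2 did not separate the clones. The brighter of them read 167.0, 169.7 and 180.2 in D20 and 169.5, 118.2 and 123.4 in pU6-2, and the dimmer read 99.6, 202.4 and 17.4 in D20 and 138.8, 68.0 and 68.0 in pU6-2. Averaged over its tested probe sets, COL1A1 was 3.33 higher on the log2 scale. With log2(signal + 1) the rule chose a different probe set as the brightest, which gave 0.35 with an adjusted p of 0.397. All 5 probe sets carry the suffix _s_at or _x_at, the array's mark for probes shared with other transcripts, so the gene had no value when such probe sets were left out.

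COL1A2, which encodes the partner chain of type I collagen, did not pass the test. It had signals of 54.7, 139.9 and 58.0 in D20, against 67.1, 53.1 and 85.4 in pU6-2, and the arrays overlapped. The log2 fold change was 0.16, with a 95% interval of -0.79 to 1.11 and an adjusted p of 0.812. The interval of COL1A1, 7.33 to 8.23, lay above it, but the difference between the 2 genes was not tested.

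COL5A2 and COL27A1 were the fibrillar genes with the largest falls in D20. COL5A2 encodes a chain of type V collagen, which joins type I fibrils and limits their width. It had signals of 840.7, 576.2 and 778.8 in D20, against 3288.7, 3020.3 and 3219.7 in pU6-2. It fell by 2.11 ± 0.13 on the log2 scale with an adjusted p of 9.94e-08, and its other probe set fell by 1.86. Its partner gene COL5A1 was too dim to be tested.

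COL27A1, a fibrillar collagen of developing cartilage, had signals of 1626.0, 1730.3 and 1720.6 in D20, against 6605.7, 6340.1 and 6407.8 in pU6-2. The 3 arrays of each clone lay close together and far from those of the other clone. It fell by 1.92 ± 0.08 with an adjusted p of 3.40e-09, and its 2 other tested probe sets fell by 1.91 and 1.59.

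COL2A1 encodes the chain of type II collagen, the main fibrillar collagen of cartilage. Its signals were 1100.1, 1199.1 and 930.5 in D20, against 1638.5, 1595.8 and 1761.9 in pU6-2, with no overlap. It fell by 0.63 ± 0.12 with an adjusted p of 0.00109, while its other probe set, at -0.35, did not pass the test. COL11A2 encodes a chain of type XI collagen, which assembles with type II in cartilage. It had overlapping signals of 148.7, 204.3 and 257.1 in D20 and 138.5, 175.5 and 195.0 in pU6-2, and did not pass the test (log2 fold change 0.22, 95% interval -0.37 to 0.81, adjusted p 0.569). The other probe set of COL11A2 was at -0.14 and did not pass the test (adjusted p 0.847). The chain's partner gene COL11A1, and COL3A1 of type III collagen, were too dim to be tested.

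All 4 tested type IV genes were higher in D20, with a median log2 fold change of 2.29, and all 4 were dim genes. COL4A2, COL4A3 and COL4A4 passed the filter through their D20 signals, so this count and median are not read as a result about type IV. With no filter the same 4 of all 6 type IV genes were higher, as were 15.3% of all genes. COL4A1 and COL4A2 encode the chains of the form of type IV collagen found in nearly all basement membranes. COL4A1 had signals of 227.6, 144.7 and 171.4 in D20, against 45.7, 79.4 and 67.2 in pU6-2. COL4A2 had 106.3, 84.5 and 161.1 in D20, against 9.5, 49.0 and 24.3 in pU6-2. For both genes every D20 array lay above every pU6-2 array. The other probe set of each gene was too dim to be tested. That of COL4A1 showed no rise, with 15.0, 9.1 and 13.5 in D20 and 9.0, 53.8 and 5.0 in pU6-2. That of COL4A2 read 29.5, 23.0 and 52.4 in D20 and 3.4, 9.3 and 3.7 in pU6-2. COL4A1 rose by 1.30 ± 0.34 with an adjusted p of 0.00863, and COL4A2 by 1.68 ± 0.50 with an adjusted p of 0.0180. The call of COL4A2 was lost without D20 array A (adjusted p 0.0515), D20 array C (0.0892) or pU6-2 array A (0.0539).

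COL4A3 and COL4A4 encode chains of the specialised type IV collagen of the kidney filter, lung and inner ear, and are the genes altered in Alport syndrome together with COL4A5. COL4A3 had signals of 230.5, 150.4 and 400.5 in D20, against 33.0, 3.9 and 25.6 in pU6-2. COL4A4 had 283.7, 192.2 and 252.4 in D20, against 67.9, 1.5 and 1.7 in pU6-2. The arrays of the clones did not overlap for either gene, although array A of pU6-2 stood above the other pU6-2 arrays for COL4A4. COL4A3 rose by 2.91 ± 0.48 with an adjusted p of 3.64e-04, but its second tested probe set, at 1.04, did not pass the test and its 5 others were too dim. The mean of its 2 tested probe sets was 1.97 higher. COL4A4 rose by 3.11 ± 0.58 with an adjusted p of 9.00e-04, and by 3.86 without pU6-2 array A. Its other probe sets were too dim to be tested. The size of the rises of these dim genes depended on the pseudocount: with 1 and 64 in place of 16, COL4A2 was at 2.27 and 0.99, COL4A3 at 3.88 and 1.88, and COL4A4 at 4.96 and 1.88. All 4 type IV genes were left out by a stricter filter that dropped the dimmest 60% of probe sets.

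COL4A5, which encodes the third chain of that specialised type IV collagen, was too dim to be tested, with signals of 2.4, 3.0 and 3.7 in D20 and 48.8, 61.5 and 5.7 in pU6-2. COL4A6, its head-to-head partner on chromosome X, had 17.6, 49.1 and 32.2 in D20 and 38.3, 20.4 and 6.2 in pU6-2. Neither passed the test when the filter was dropped. Of the short-chain network collagens only COL8A2, a chain of the hexagonal lattice under the corneal endothelium, was tested. It had 86.7, 255.7 and 191.6 in D20 and 338.0, 372.9 and 194.1 in pU6-2. Its log2 fold change of -0.77 (95% interval -1.54 to -0.01) had an adjusted p of 0.110 and passed the test without D20 array B, at -1.07, and after median centring, at -0.91. Its other probe set was at -0.17 and did not pass the test (adjusted p 0.722).

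Among the fibril-associated collagens, which sit on the surface of fibrils, COL12A1 and COL16A1 were higher in D20 and COL9A3 was lower. COL12A1 encodes type XII collagen, which lies on type I fibrils in tendon and other dense tissue. Its signals were 1031.8, 1805.0 and 1553.1 in D20, against 48.3, 83.5 and 94.0 in pU6-2. It rose by 4.02 ± 0.25 with an adjusted p of 9.23e-08, its other tested probe sets rose by 2.63 and 2.69, and the mean of its probe sets was 3.11 higher.

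COL16A1, a minor collagen of skin and cartilage matrix, had signals of 277.3, 333.3 and 311.6 in D20, against 18.6, 198.8 and 6.7 in pU6-2. The D20 arrays were alike, and array B of pU6-2 was far above the other arrays of its clone. It rose by 2.55 ± 0.63 with an adjusted p of 0.00673. The value was 3.52 without pU6-2 array B and 1.90 without pU6-2 array C, and with no variance trend in the fit its call was lost (adjusted p 0.0650). With pseudocounts of 1 and 64 it was 3.30 and 1.68, and the stricter filter on the dimmest 60% left this gene out too.

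Type IX collagen is bound to type II fibrils in cartilage and is made of 3 different chains. COL9A3 had signals of 717.5, 720.8 and 695.2 in D20, against 956.2, 1560.6 and 1255.4 in pU6-2, and fell by 0.78 ± 0.16 with an adjusted p of 0.00189. COL9A2 had 338.4, 425.4 and 381.5 in D20 and 428.1, 557.4 and 462.7 in pU6-2. Its arrays did not overlap between the clones by a narrow margin, but its log2 fold change of -0.32 (95% interval -0.70 to 0.05) did not pass the test, with an adjusted p of 0.172. Its other probe set was at 0.08 and did not pass the test (adjusted p 0.866). COL9A1 was too dim to be tested.

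COL7A1 encodes type VII collagen, which forms the fibrils that anchor the skin's basement membrane. Its signals were 858.1, 866.9 and 683.2 in D20, against 168.9, 246.4 and 338.5 in pU6-2, with no overlap. It rose by 1.66 ± 0.22 with an adjusted p of 7.28e-05, and its other probe set rose by 2.24.

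COL18A1 encodes type XVIII collagen, a basement membrane proteoglycan made by hepatocytes whose C-terminal fragment is endostatin. Its signals were 5765.4, 6325.1 and 4889.8 in D20, against 2612.5, 3571.3 and 3097.9 in pU6-2. It rose by 0.87 ± 0.12 with an adjusted p of 1.09e-04. Both probe sets of the gene carry the suffix _s_at, so it had no value when such probe sets were left out. Its other probe set read 5127.6, 5353.5 and 4868.1 in D20 and 1560.8, 1778.4 and 1503.6 in pU6-2, and rose by 1.66. The log2 difference of that probe set from the brighter one was -0.14 ± 0.12 in D20 and -0.92 ± 0.16 in pU6-2 (SD, n = 3 each), so the 2 probe sets changed unequally. The clones' arrays did not overlap in this difference, and the two-sided exact permutation p of 0.1 is the smallest that 3 arrays against 3 allow. RefSeq lists 2 start windows for this gene, on chromosome 21, and which transcript each probe set reads was not tested.

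COL26A1 had signals of 170.7, 51.7 and 141.9 in D20, against 154.2, 307.6 and 358.2 in pU6-2, and was the only called member whose arrays overlapped. It fell by 1.12 ± 0.40 with an adjusted p of 0.0447, close to the threshold. Its other probe set was too dim to be tested and went the other way. That probe set read 86.9, 33.3 and 37.0 in D20 and 27.0, 23.5 and 15.0 in pU6-2, with no overlap. The call was lost without D20 array B (adjusted p 0.147, log2 fold change -0.68), pU6-2 array B (0.137) or pU6-2 array C (0.178). It was also lost with no filter (0.0807), with log2(signal + 1) (0.0547) and with no variance trend (0.134).

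Type VI collagen forms beaded filaments around cells, and neither of its tested chains passed the test. COL6A1 was at -0.01 on the log2 scale (95% interval -0.96 to 0.95) and COL6A2 at -0.37 (95% interval -1.22 to 0.47). COL13A1, a collagen that spans the cell membrane, was at 0.25 (95% interval -1.11 to 1.62). At the lower signals, intervals as wide as these cannot show a 1.5-fold change. The other probe sets of COL13A1 were too dim to be tested and went in opposite directions. The first read 19.1, 188.5 and 87.7 in D20 and 15.5, 17.7 and 15.3 in pU6-2, with no overlap. The second read 2.4, 32.9 and 11.0 in D20 and 29.3, 50.6 and 30.3 in pU6-2.

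The 22 members that were not tested were COL3A1, COL4A5, COL4A6, COL5A1, COL5A3, COL6A3, COL6A5, COL6A6, COL8A1, COL9A1, COL10A1, COL11A1, COL14A1, COL15A1, COL19A1, COL20A1, COL21A1, COL22A1, COL23A1, COL24A1, COL25A1 and COL28A1. Their signals on single arrays lay between 1.8 and 105.6, and the median of their mean signals was 30.3 in D20 and 26.7 in pU6-2. Without the filter none of the 22 was called, the smallest adjusted p from limma being 0.0661.

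**Figure D3:**
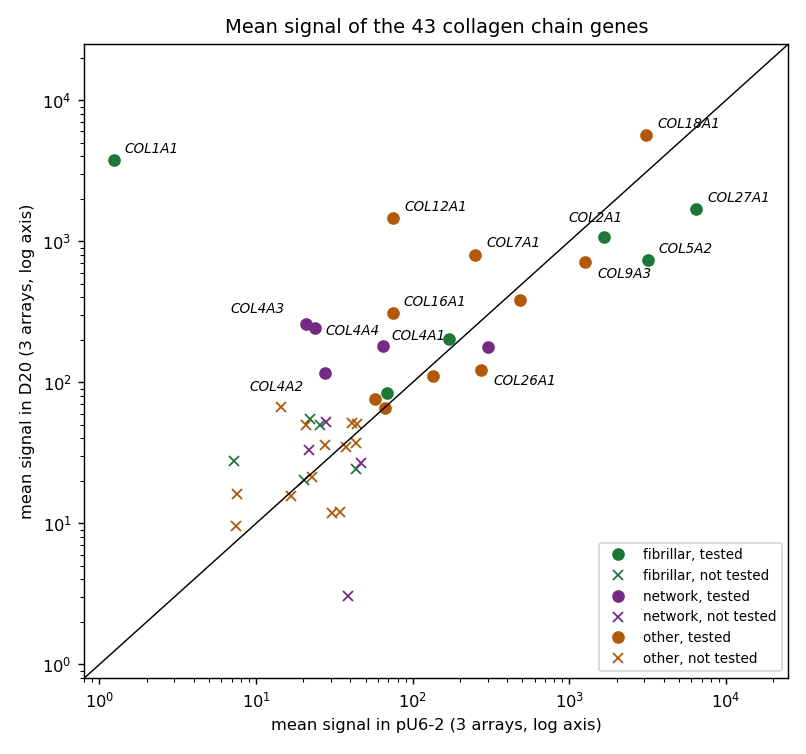
Mean MAS5 signal of all 43 collagen chain genes in D20 (vertical) and pU6-2 (horizontal), both on log axes, with the line of equal signal. Circles are tested genes, crosses are genes left out as dim, and colours are the classes. The crosses lie at means of 66.7 or less in D20 and 46.7 or less in pU6-2.

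Where a gene had several probe sets, they were compared for agreement. With no filter 14 of all 112 collagen probe sets (12.5%) were called higher in D20 and 7 (6.25%) lower, against 10.9% and 9.33% of all probe sets. A second tested probe set was present for 8 of the 14 called genes. For 6 of these 8, COL1A1, COL5A2, COL27A1, COL12A1, COL7A1 and COL18A1, at least 1 other probe set gave the same call. COL2A1 and COL4A3 had no second call, and 0 of the 8 genes had a probe set called in the opposite direction. The D20 and pU6-2 arrays did not overlap for 17 of all 43 members (39.5%), and for 41.5% of all named genes.

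**Figure D4:**
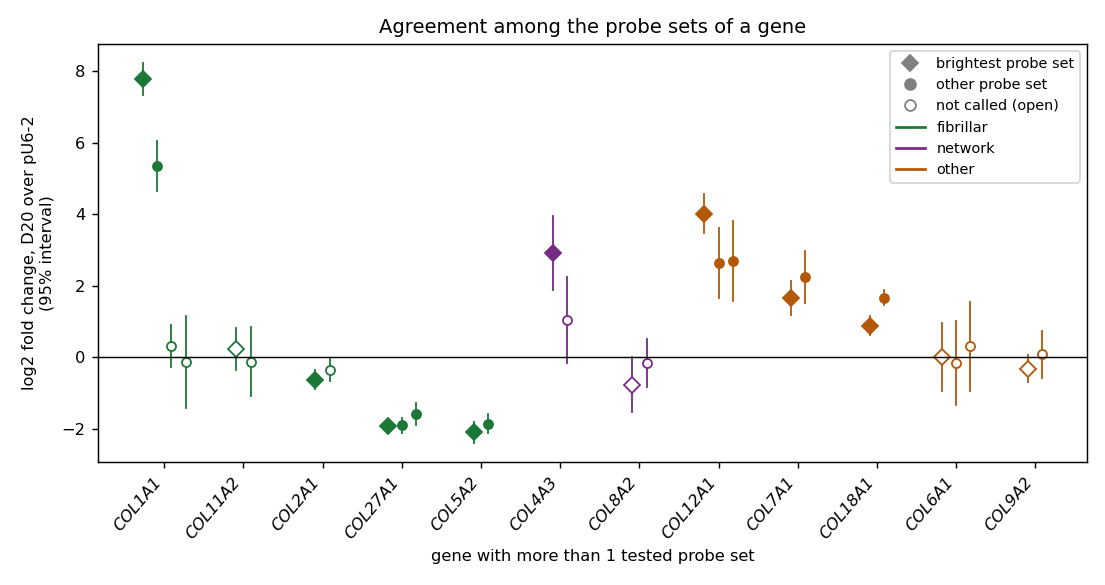
Log2 fold change of D20 over pU6-2 with its 95% interval for each tested probe set of the 12 collagen genes that have more than 1. Diamonds are the brightest probe set of a gene, circles the others, and open symbols did not pass the test. The probe sets of COL1A1 run from -0.12 to 7.78, and the 3 of COL27A1 from -1.92 to -1.59.

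The genes next to the called members on their chromosomes were compared with them. For the nearest 10 tested genes, 5 on each side, the median log2 fold change was 0.34 around COL1A1, 0.18 around COL12A1 and 0.30 around COL7A1. It was 0.32 around COL4A1, 0.40 around COL4A2, 0.55 around COL4A3 and 0.18 around COL4A4, counting the partner gene of each pair. It was -0.18 around COL5A2 and -0.09 around COL27A1. The median was 0.002 around COL2A1, -0.08 around COL9A3, -0.07 around COL16A1, -0.03 around COL18A1 and -0.09 around COL26A1. The neighbour sets of paired genes overlapped. The members were picked for their own changes, so a neighbour median nearer to 0 would be found in any case and is not evidence. Around COL1A2, which did not pass the test itself, the median was -0.69 and 8 of the 10 neighbours were lower in D20.

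Genes that make, bind and break down collagen were read from 6 lists of 82 genes, of which 63 were tested. Of these 63, 21 were higher in D20 and 19 lower, and some, such as LOXL2 and MEP1A, passed the filter through the clone where they were high. With no filter 20 of the 80 listed genes named on the array (25%) were higher and 16 (20%) lower, against 15.3% and 13.5% of all genes. The lists were chosen with earlier results known, so these shares support nothing about the lists. The counts given below for each list are of genes that passed the filter, where 23.7% of all genes were higher and 20.8% lower. They are not read as results about a list. The enzymes that hydroxylate and glycosylate the chains moved both ways, 5 of 12 higher and 4 lower, with a median log2 fold change of 0.15. P3H2, a prolyl 3-hydroxylase that acts on type IV collagen, had a mean signal of 2275.8 ± 141.7 in D20 and 322.8 ± 25.3 in pU6-2 (SD, n = 3 each) and rose by 2.76. P4HA2, a catalytic subunit of prolyl 4-hydroxylase, rose by 2.29, and PLOD3, a lysyl hydroxylase and glycosyltransferase, fell by 0.88.

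Of the chaperones and carriers of procollagen 2 of 14 tested were higher and 6 were lower, with a median of -0.25. CREB3L1, a transcription factor of the secretory pathway that drives type I collagen in bone, was at 21.1 ± 10.5 in D20 and 143.6 ± 23.5 in pU6-2 and fell by 2.14. TMEM38B, an ion channel of the endoplasmic reticulum, fell by 0.89, and SEC31A, a coat protein of transport vesicles, fell by 0.80. The enzymes that trim and crosslink collagen held the widest range of the 6 lists, 4 of 11 higher and 3 lower, with a median of 0.43. LOXL2, a lysyl oxidase that crosslinks collagen, had a mean signal of 3060.6 ± 252.8 in D20 and 30.6 ± 18.5 in pU6-2 and rose by 6.12. LOXL4 of the same family rose by 3.12. MEP1A, a subunit of the protease meprin, which can trim procollagen, was at 5.4 ± 2.1 in D20 and 3681.8 ± 509.3 in pU6-2 and fell by 7.43.

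Of the matrix partners 4 of 15 were higher and 5 lower, with a median of 0.12. SPARC, a collagen-binding protein, rose by 3.11, while the small proteoglycans LUM and BGN fell by 2.89 and 2.31. Of the collagen receptors 3 of 6 were higher and 1 was lower, with a median of 0.50. MRC2, the receptor that takes up collagen fragments, rose by 3.45, DDR2, a kinase activated by fibrillar collagen, rose by 0.89, and ITGA1, the alpha chain of an integrin that binds type IV collagen, fell by 1.80. Of the collagenases and their inhibitors 5 of 9 were bright enough to be tested, 3 being higher and 0 lower, with a median of 0.79. These 3 were the inhibitors TIMP2, up by 1.67, and TIMP1, up by 1.20, and the membrane collagenase MMP14, up by 0.79. All named genes of these lists passed limma's test, with adjusted p-values between 8.63e-11 (MEP1A) and 0.00314 (DDR2). P3H2, SEC31A, LOXL2, BGN, LUM and SPARC had no value when the probe sets marked as shared were left out, and CREB3L1, LUM and SPARC none under the stricter filter. With the mean of its probe sets LOXL2 was at 4.99 and MRC2 at 2.60. With a pseudocount of 64, CREB3L1 was at -1.29, MEP1A at -5.75, LOXL2 at 5.06, LUM at -1.62 and SPARC at 2.06.

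**Figure D5:**
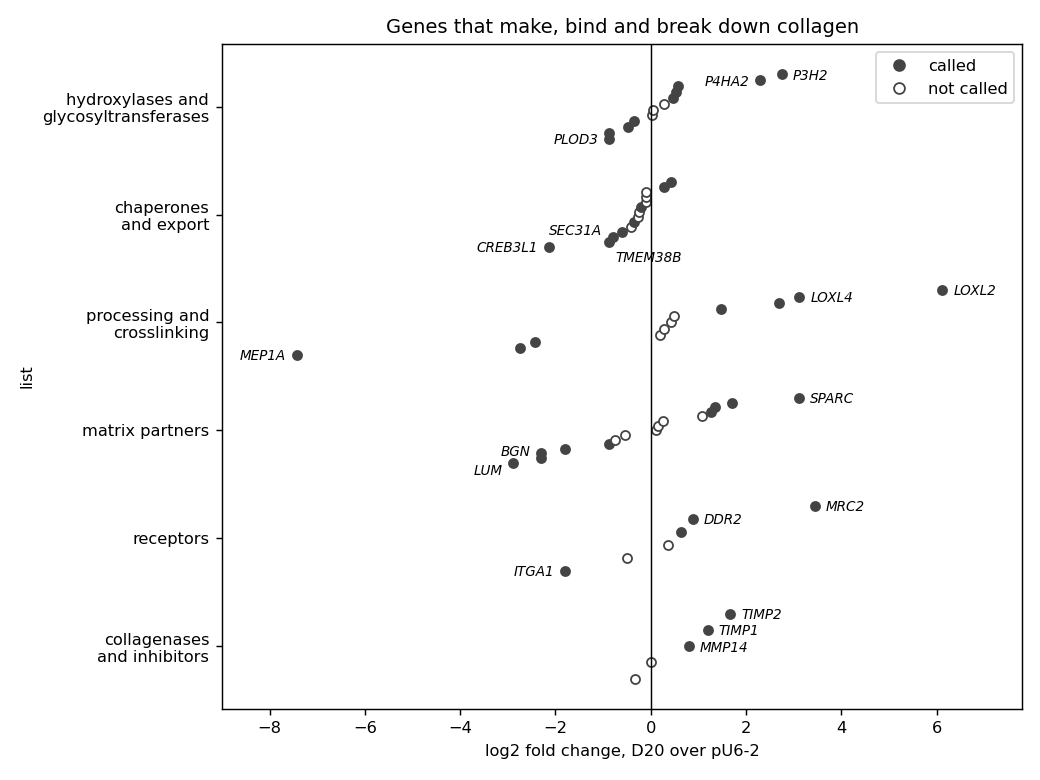
Log2 fold change of D20 over pU6-2 for the 63 tested genes of 6 lists of collagen-handling genes. Each point is a gene, filled where it passed limma's test, with up to 3 called genes with the largest change named per list. MEP1A lies at -7.43 and LOXL2 at 6.12.

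Markers of other cells were read beside the collagen genes. Both clones are of the cell line Hep3B, so the markers were read as transcripts of the line and not as amounts of other cell types. Bulk RNA cannot tell a change in every cell from a change in some cells. Of 12 markers of fibroblasts and stellate cells 8 were tested: TAGLN rose by 2.64, LUM and PDGFRA fell by 2.89 and 0.58, and 5 did not pass the test. LRAT, DES, TCF21 and FAP were too dim to be tested. The summed signal of the list was 1467 to 1877 on D20 arrays and 1544 to 1877 on pU6-2 arrays. The call of TAGLN was lost without the probe sets marked as shared (1.22, adjusted p 0.0642), and that of PDGFRA with the spike-in scaling (-0.36, adjusted p 0.102), with the mean of its probe sets (0.71, adjusted p 0.0689) and without pU6-2 array A (-0.51, adjusted p 0.0519).

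Of the hepatocyte markers 1 of 8 tested was higher in D20 and 6 were lower, with log2 fold changes of -3.33 for APOA1, -2.99 for TTR and -2.37 for TF. The marker that was higher was FGB, which rose by 1.705, and ALB did not pass the test, at 0.005. Read from its brightest probe set not ending in _x_at, APOA1 was at -1.66 (adjusted p 0.0114). The summed signal of the hepatocyte list was 104003 to 114834 in D20 and 212634 to 220558 in pU6-2. Of the cartilage markers SOX9, the transcription factor that drives COL2A1 in cartilage, had a mean signal of 3835 ± 240.4 in D20 and 6013 ± 439.9 in pU6-2 and fell by 0.65, the others not passing the test, and HAPLN1 and CHAD being too dim. The sum of that list was 3977 to 4332 in D20 and 5715 to 6627 in pU6-2. Of 2 endothelial markers tested PECAM1 rose by 1.63, with sums of 283.8 to 407.1 in D20 and 145.1 to 315.4 in pU6-2, and CDH5, VWF, TEK and KDR were too dim. Of 3 blood markers tested LYZ, also made by epithelial cells, fell by 7.34, with sums of 166.4 to 250.5 in D20 and 3923 to 5254 in pU6-2, and PTPRC and CD3E were too dim. LYZ was at -2.86 without the probe sets marked as shared and at -5.10 when its probe sets were averaged. Whether these marker transcripts and the collagen differences are linked was not tested.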

How the data were processed

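RNA from 3 arrays each of clones D20 and pU6-2 was measured on Affymetrix arrays, with groups taken from the sample titles. The authors deposited intensity on a linear scale for each probe set, from MAS5 per the submitters' processing notes (version not given in the sources used here). Probe sets were named from GEO's platform annotation, with symbols updated by Entrez identifier to RefSeq GRCh38.p14. Of 54675 probe sets, 62 controls and 21845 dim ones (mean signal below 43.2) were left out. Signals were taken as log2(signal + 16), with no further normalization. Clone D20 was set against pU6-2 in limma 3.58.1 (R 4.3.3) with lmFit and eBayes (trend = TRUE), two-sided, adjusting p-values by Benjamini-Hochberg over 32768 probe sets. The brightest tested probe set, by mean log2 signal, stood for a gene. The fit was tested on simulated data. Promoter sequences are RefSeq's.

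Values per array are given for called members with a mean of 100 or more in the brighter clone. They are also given for the brightest 3 members not called. Those of COL1A2, COL4A5, COL4A6 and further probe sets of COL1A1, COL4A1, COL4A2, COL13A1, COL18A1 and COL26A1 were added after they were seen. Up to 3 called genes with the largest change are named per list, with FGB and ALB added from the hepatocyte list. Members and lists were chosen with earlier results of these data known. The 18 alternatives covered the pseudocount, filter, scaling, probe set, variance model, replicate block and leaving out each array.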

Additional observations from a re-analysis of the deposited data

How the results depend on the processing

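None of 478 recomputed values under 18 alternatives changed direction as a called result, and 448 kept their call or stayed within 1.5 times the count. A gene left out by a setting gave no value there and is not among the 478. This held for COL4A1, COL4A2, COL4A3, COL4A4 and COL16A1 under the 60% filter. It also held for COL1A1, COL9A3 and COL18A1 without probe sets ending in _x_at or _s_at. Dropping the dimmest 60% of probe sets left 4 collagen genes higher, 0 of them network-forming. The count of fibrillar genes higher was 0 with log2(signal + 1) and 0 without probe sets ending in _x_at or _s_at, since COL1A1 lost its call or its value. The count of other collagens lower was 1 with log2(signal + 1), with no filter, with the spike-in scaling, without _x_at or _s_at probe sets and with no variance trend. All of these lost COL26A1 except the setting without those probe sets, which left out COL9A3. Median centring called 1 network gene lower, COL8A2. Without _x_at or _s_at probe sets 7 collagen genes were higher and 4 lower, with no value for COL1A1, COL9A3 and COL18A1. In that setting 13 of the pathway genes were higher and 12 lower. Leaving out each array in turn gave 8 to 9 collagen genes higher and 4 to 5 lower: fibrillar 1 higher and 3 lower each time, network 3 to 4 higher and 0 to 1 lower, other types 4 higher each time and 1 to 2 lower. For the pathway genes it gave 18 to 21 higher and 16 to 18 lower.

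The arrays of the clones share the letters A, B and C. The deviations of same-letter arrays correlated at r = -0.02, 0.05 and 0.01, and those of different letters at -0.06 to 0.05. The letters were not taken as pairs in the main fit. In both clones array B had the highest GAPDH and the lowest ACTB ratio of 3′ to 5′ probe sets. These were 1.25 and 1.40 in D20 and 1.15 and 1.42 in pU6-2. Whether bright genes alone deviated together by letter was not tested. With the letter as a replicate block the 14 called members kept their direction, 9 higher and 5 lower. In that fit 47.0% of all genes were called, against 44.5% in the main fit. No detection calls were used here, so at the dim signals of the type IV genes in pU6-2 a low level and none cannot be told apart. With 3 arrays of 1 clone each, differences between clones of the same kind were not measured.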
